A study of Homo sapiens with 60 samples.

Results

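The 1321N1 cell line, an established human line of astrocyte origin, was treated for 3 h with 2.3 µM cadmium chloride and compared with non-treated cells harvested at the same time point, with 3 libraries in each group. These 6 libraries are part of a series of 60, in which the same line was also exposed to arsenic (sodium metaarsenite at 2.55 µM) or mercury (mercury chloride at 20 µM), or left non-treated, for 1.5, 3, 6, 12, or 24 h. Per the labels, all groups were the same line in the same medium, and no group carried a genetic change. RNA was sequenced from the 3′ end, and the comparison covered all 12341 genes with enough counts, out of 20396 with at least 1 count in the 6 libraries. The libraries held between 3006166 and 3432527 counted reads. The submitters describe the triplicates as technical, so the p-values may measure only the spread between libraries and not that between independent cultures.

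Cadmium is a toxic divalent metal that enters cells through carriers of zinc, manganese, and iron and binds tightly to thiol groups. Cells answer to it through several sensors. The zinc-sensing factor MTF1 binds metal response elements in the promoters of metallothioneins, small cysteine-rich proteins that bind zinc, copper, and cadmium, and of the zinc exporter SLC30A1. Misfolded proteins release the heat-shock factor HSF1, which binds heat shock elements in front of chaperone genes, whereas the thiol sensor KEAP1 releases NRF2, which binds antioxidant response elements in front of genes such as HMOX1, the enzyme that breaks down heme. Astrocytes are known as a metallothionein-rich cell type of the brain.

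After 3 h of cadmium, 25 genes were differentially expressed, and all 25 were higher than in non-treated cells. This corresponds to 0.203% of the genes tested by the quasi-likelihood test of edgeR at an adjusted p under 0.05. Of these, 11 had a log2 fold change (LFC) above 1, or 0.0891% of the genes tested. The 25 genes comprised 3 metallothioneins, the zinc exporter SLC30A1, 6 chaperones and co-chaperones, and HMOX1, and the others had various roles, among them DDIT4, JUN, MCL1, and EDN1. No gene was called lower (0 genes, lowest adjusted p of a lower gene 0.098 for GON4L), although 394 genes were lower and 616 higher at an unadjusted p under 0.05. With DESeq2, 45 genes were higher and 5 lower. LFCs are on the log2 scale of counts normalized by TMM, and levels are given as CPM, the counts of a gene relative to the normalized size of its library.

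**Figure D1:**
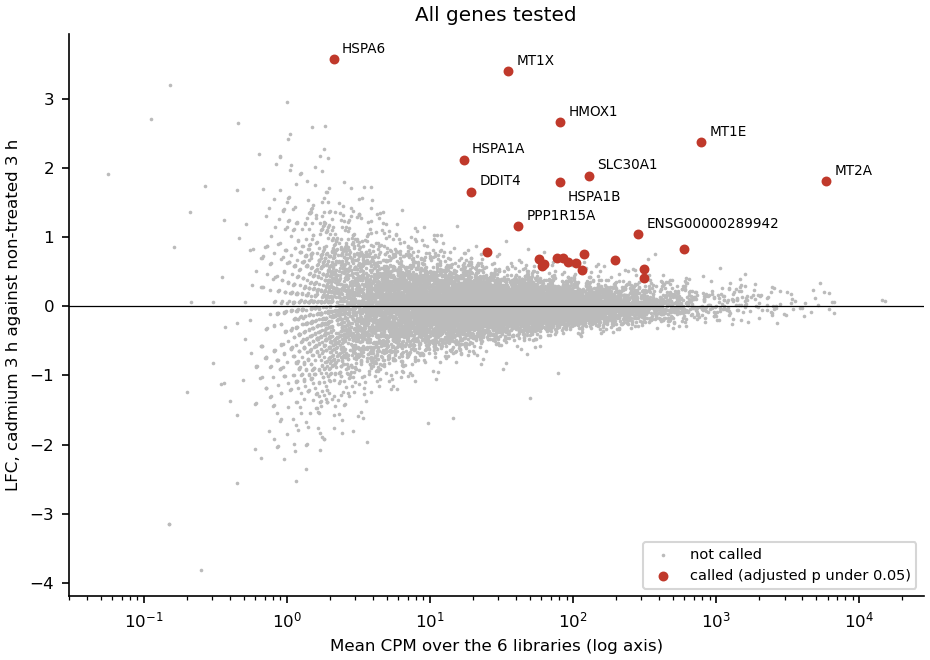
Each point is 1 of the 12341 genes, with the mean CPM over the 6 libraries on a log axis and the LFC of cadmium 3 h against non-treated 3 h on the other axis. The 25 genes called, in red, all lie above 0, with LFCs from 0.41 to 3.57, and the 11 with an LFC above 1 are labelled by name.

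The labelled cell type was checked against marker genes. Of 11 glial markers, VIM, a filament protein, had a mean of 4459 CPM with cadmium and 4714 without, CD44 399.8 and 401.0, and SOX9 96.1 and 96.2. S100B, AQP4, and ALDH1L1 had 0 counts in all 6 libraries, and GFAP, the filament of mature astrocytes, had 0 to 3 counts. SLC1A3 had means of 1.55 CPM with cadmium and 0.50 CPM without, and SLC1A2 had 0.10 and 0 CPM. The summed level of the glial markers ranged from 4649 to 5305 CPM with cadmium and from 5070 to 5402 CPM in non-treated cells. Most of this sum came from VIM and CD44, and only 5 of the 11 glial markers had enough counts to be tested. The sum alone therefore does not show a glial identity. The markers of oligodendrocytes, of microglia, and of endothelium summed to at most 1.81 CPM in any of the 6 libraries, and all 3 endothelial markers were at 0 counts. Neuronal markers summed to between 8.68 and 12.4 CPM, nearly all from SYT1, and epithelial markers to between 41.1 and 59.9 CPM, nearly all from KRT18.

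Among the cadmium libraries, replicates 1 and 2 stood apart from replicate 3. The main axis of the deviations of all 60 libraries from their group means held 18.2% of that spread, and it was summarised as a spread score, the mean log2 CPM over 100 genes that were neither called nor on any gene list. The score was 0.34 and 0.40 for cadmium replicates 1 and 2 and -0.0036 for replicate 3, whereas the non-treated libraries had -0.048, 0.046, and 0.0019. UBL5, a ubiquitin-like protein, had 883 and 924 CPM in cadmium replicates 1 and 2 but 462 CPM in replicate 3, close to the 448, 413, and 414 CPM of the non-treated libraries. UBL5 levels above 638 CPM, which is 1.5 times the non-treated mean, were also seen in 8 libraries of 4 other groups. These were replicates 1 and 2 of arsenic at 1.5 and 24 h, mercury at 6 h, and non-treated cells at 12 h. The share of reads on processed pseudogenes was 1.07% and 1.01% in replicates 1 and 2, 1.37% in replicate 3, and at least 1.14% in each non-treated library. For each gene called that lost its call without replicates 1 and 2, the value from that fit is given as well.

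**Figure D2:**
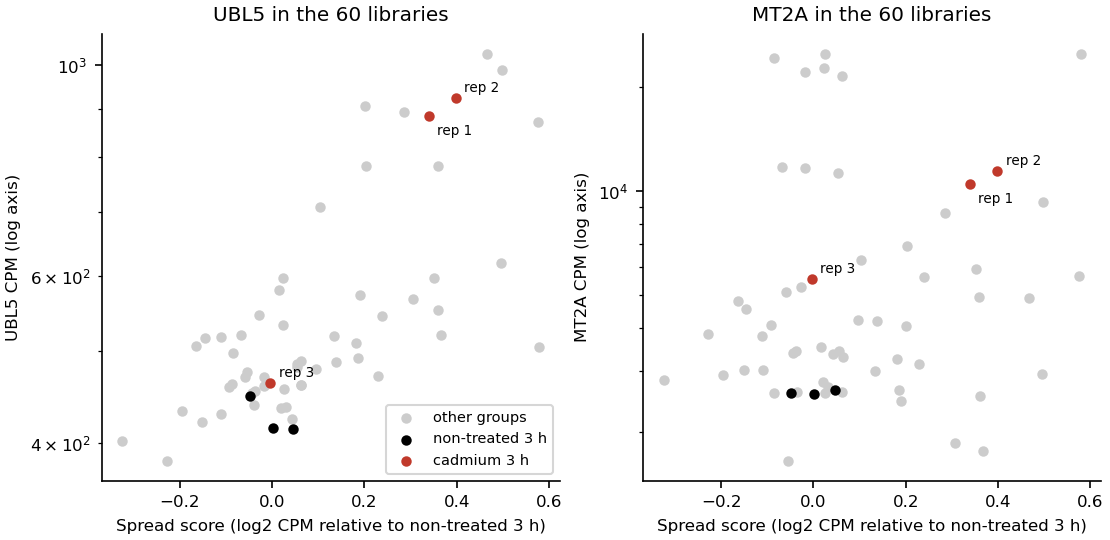
The spread score of each of the 60 libraries (x axis, log2 CPM relative to the mean of the non-treated 3 h libraries) is plotted against the level of UBL5 or MT2A (CPM, log axis). Cadmium 3 h replicates 1 and 2 lie at scores of 0.34 and 0.40 with 883 and 924 CPM of UBL5, whereas replicate 3 lies beside the 3 non-treated 3 h libraries.

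The promoters of the genes called higher hold the letters bound by these factors to different degrees. Of the 25 genes, 19 had an entry in the RefSeq table of promoters (GRCh38.p14, 250 bases before to 50 after the start), and MT1E, HMOX1, ENSG00000289942, FKBP4, MCL1, and TRIB1 are named only. The core of the metal response element, TGCACNC or TGCGCNC on either strand, was present for 9 of the 19 genes and in 29.6% of all 35116 promoter windows. The core of the heat shock element, GAANNTTC or TTCNNGAA, was present for 9 of the 19 genes and in 13.5% of all windows. The antioxidant response element core, TGACNNNGC, was present for 5 of the 19 genes and in 13.3% of all windows. Genes with several starts have several windows, so that the shares of genes and of windows are not on the same base, and a match of letters is a description and not a binding site. The 250 bases before the start are shown for the metallothioneins MT2A and MT1X and for SLC30A1, with the metal response element core in capitals, because these genes had among the highest levels or LFCs of the comparison. They lie at chr16:56608334-56608583 (+), chr16:56682220-56682469 (+), and chr1:211579162-211579411 (-) and hold 7, 4, and 1 copies.
MT2A: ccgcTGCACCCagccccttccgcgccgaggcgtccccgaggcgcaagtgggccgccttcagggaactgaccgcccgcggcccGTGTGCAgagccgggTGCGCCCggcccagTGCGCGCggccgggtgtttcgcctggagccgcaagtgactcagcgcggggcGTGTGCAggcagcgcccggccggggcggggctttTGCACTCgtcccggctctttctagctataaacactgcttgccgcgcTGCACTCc
MT1X: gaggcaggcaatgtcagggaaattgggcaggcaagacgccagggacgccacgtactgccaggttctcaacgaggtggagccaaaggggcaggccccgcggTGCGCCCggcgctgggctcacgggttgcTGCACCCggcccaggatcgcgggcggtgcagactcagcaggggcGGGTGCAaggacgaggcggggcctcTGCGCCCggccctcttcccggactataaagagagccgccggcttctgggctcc
SLC30A1: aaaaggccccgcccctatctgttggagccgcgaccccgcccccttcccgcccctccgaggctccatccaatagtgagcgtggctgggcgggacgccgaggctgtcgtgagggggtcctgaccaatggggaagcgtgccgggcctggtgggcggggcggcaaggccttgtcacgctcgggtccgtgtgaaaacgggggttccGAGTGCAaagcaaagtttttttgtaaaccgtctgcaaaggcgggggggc

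The same stretch is shown for the heat-shock genes HSPA1A, at chr6:31815293-31815542 (+), and HSPA6, at chr1:161524290-161524539 (+), with the heat shock element core in capitals. HSPA1A holds 1 copy, 106 bases before the start, and HSPA6 holds 3, starting 180, 74, and 69 bases before it, of which the last pair overlaps.
HSPA1A: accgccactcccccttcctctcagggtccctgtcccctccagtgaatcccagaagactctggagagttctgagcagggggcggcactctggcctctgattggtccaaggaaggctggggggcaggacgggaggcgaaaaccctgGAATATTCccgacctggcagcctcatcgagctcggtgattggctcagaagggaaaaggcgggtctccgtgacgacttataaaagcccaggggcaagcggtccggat
HSPA6: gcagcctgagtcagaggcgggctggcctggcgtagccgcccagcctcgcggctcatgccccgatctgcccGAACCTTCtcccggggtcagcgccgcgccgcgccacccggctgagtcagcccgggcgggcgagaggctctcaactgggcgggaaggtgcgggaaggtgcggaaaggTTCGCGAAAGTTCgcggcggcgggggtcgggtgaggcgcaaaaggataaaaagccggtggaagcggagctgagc

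Metallothioneins had 3 genes called of 4 tested, against 0.203% of all genes. MT1E, on chromosome 16 of GRCh38 from 56625475 to 56627112, had 1303, 1435, and 1189 CPM in the cadmium libraries against 232, 273, and 249 CPM in the non-treated libraries. All cadmium libraries lay above all non-treated libraries, with little spread among replicates. The LFC was 2.38 (standard error 0.11, adjusted p = 8.78e-28 from edgeR). MT1X, on the same chromosome from 56682470 to 56684196, was at 62.7, 76.9, and 54.0 CPM with cadmium against 5.74, 6.29, and 6.21 CPM without. Its LFC of 3.40 (standard error 0.21, adjusted p = 1.68e-20) was the highest of the genes with at least 10 counts in each library. Within the last 400 bases of the MT1X transcript, 50.4% of the stretches of 50 bases also occur in transcripts of other genes, so that its counts may miss or share reads of related genes.

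MT2A, the metallothionein with the most reads, had 10458, 11402, and 5543 CPM with cadmium against 2584, 2639, and 2569 CPM in non-treated cells. The groups did not overlap, but replicate 3 lay between the non-treated libraries and the other cadmium libraries. An uneven MT2A level was also seen without cadmium. Non-treated cells at 12 h had 4901 and 4042 CPM in replicates 1 and 2 and 2451 CPM in replicate 3. The LFC was 1.81 (standard error 0.19, adjusted p = 1.56e-10 from edgeR). It was 1.52 (adjusted p = 2.37e-13) with the spread score in the model and 1.09 (adjusted p = 0.0148) without cadmium replicates 1 and 2. The metallothionein genes together took up 1.17%, 1.26%, and 0.684% of all counts with cadmium and 0.288% to 0.299% without. The other members of the family, MT1A, MT1F, MT1H, MT1M, MT3, and MT4, had 0 counts in the 6 libraries, MT1G had at most 3, and MT1B had 1.

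The transcript ENSG00000289942, annotated as a long non-coding RNA on chromosome 4 from 68376551 to 68376665 (+), rose as well. It had 367, 351, and 437 CPM with cadmium against 170, 205, and 183 CPM without, an LFC of 1.05 ± 0.13 (standard error) and an adjusted p of 8.02e-08 by edgeR. Its 115 bases lie near the annotated pseudogene MT2P1, which spans 68376323 to 68376505 on the same strand. In a local alignment, 97 of 100 columns were identical to the last 100 bases of the MT2A transcript, so that reads of the 2 genes may not have been told apart. Unlike MT2A, it was highest in cadmium replicate 3.

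SLC30A1, which exports zinc from the cytosol across the plasma membrane, had 220, 205, and 181 CPM with cadmium and 52.5, 52.4, and 58.5 CPM without. The LFC was 1.89 (standard error 0.13, adjusted p = 7.11e-19 from edgeR), and all cadmium libraries lay above all non-treated libraries. Of the 6 SLC30 exporters tested, SLC30A1 was the only member called, against 0.203% of all genes. The median LFC of the family was 0.38, against 0.0041 over all genes tested. SLC30A6 had an LFC of 0.37 (adjusted p = 0.584). Of 10 SLC39 zinc importers tested, 0 were called by edgeR, with 0 at an unadjusted p under 0.05 and a median LFC of -0.040. SLC39A14, which also carries cadmium and manganese, had 81.5 ± 8.72 CPM (SD, n = 3) with cadmium and 75.2 ± 3.75 CPM (SD, n = 3) without, an LFC of 0.11 (standard error 0.16, adjusted p = 0.913). SLC39A10 had 17.0 ± 5.81 CPM (SD, n = 3) with cadmium and 18.4 ± 4.71 CPM (SD, n = 3) without (adjusted p = 0.966). MTF1 itself was at 50.3 ± 4.87 CPM (SD, n = 3) with cadmium and 45.1 ± 10.9 CPM (SD, n = 3) without (adjusted p = 0.838).

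**Figure D3:**
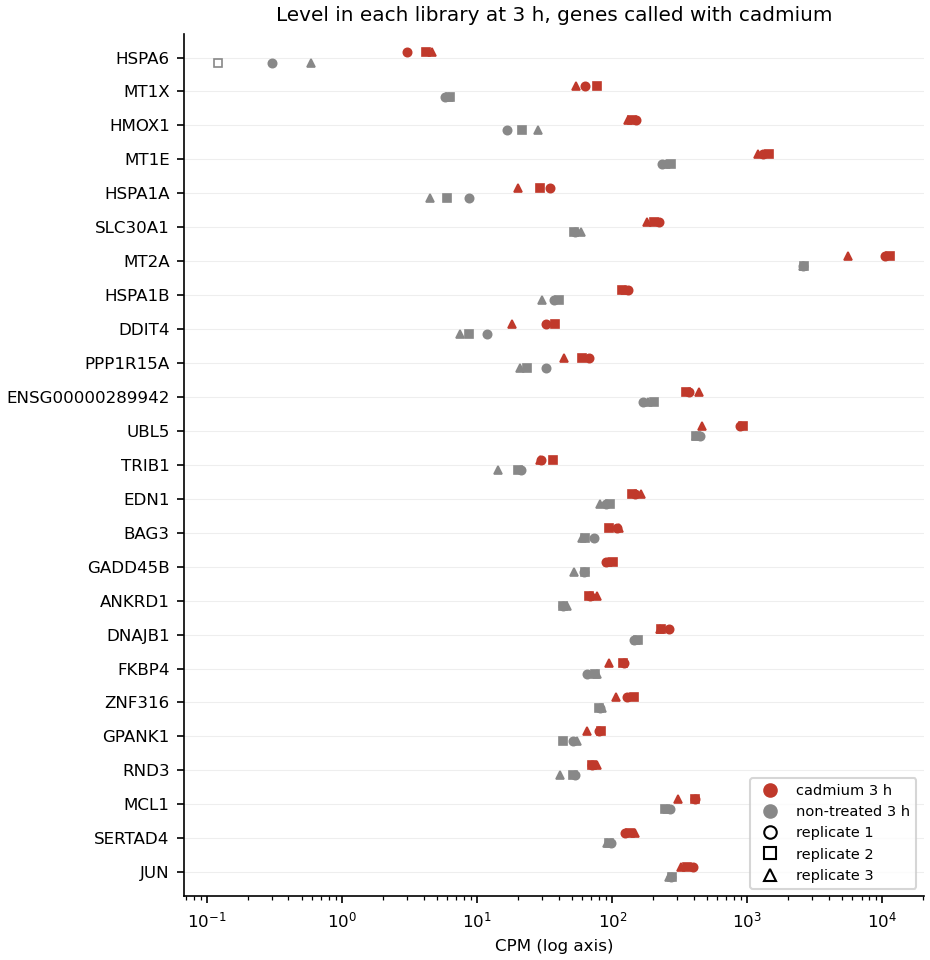
Level in each of the 6 libraries, in CPM on a log axis, for the 25 genes called, ordered by LFC, with cadmium libraries in red and non-treated libraries in grey and a symbol for each replicate. Cadmium replicate 3 (triangles) lies below the other cadmium libraries for MT2A, DDIT4, PPP1R15A, and UBL5, and the open square marks the non-treated library in which HSPA6 had 0 counts.

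Of 32 tested heat-shock genes of the cytosol, 6 were called, all higher, against 0.203% of all genes, and the median LFC over the list was 0.25. HSPA1B and HSPA1A encode the stress-inducible HSP70, which refolds damaged proteins. HSPA1B had 131, 119, and 125 CPM with cadmium against 37.1, 40.4, and 30.2 CPM without, an LFC of 1.80 ± 0.17 (standard error) and an adjusted p of 4.30e-12 by edgeR. Its mean of 35.9 CPM in non-treated cells at 3 h was the lowest of the non-treated groups. The others had 60.7, 68.8, 69.4, and 49.8 CPM at 1.5, 6, 12, and 24 h. Over the alternative fits, the LFC of HSPA1B ranged from 1.23 to 1.96. HSPA1A had 34.5, 29.2, and 20.2 CPM against 8.76, 5.99, and 4.43 CPM, an LFC of 2.12 (standard error 0.26, adjusted p = 2.43e-08). The coding sequences of both genes are nearly the same. Within the last 400 bases of HSPA1A, 6.84% of such stretches occur in HSPA1B transcripts and in no other gene, whereas 0 of those in the last 400 bases of HSPA1B occur in another gene.

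HSPA6, an HSP70 paralog that most cells do not express without stress, had 9, 14, and 15 counts with cadmium and 1, 0, and 2 counts without. The ratio of the pooled counts, relative to library size, was 13.3 (95% interval 4.22 to 67.3, which covers counting error only). The adjusted p was 0.00117 from edgeR. The co-chaperone DNAJB1, which hands clients to HSP70, had 264, 230, and 226 CPM against 144, 156, and 150 CPM, and BAG3, which links HSP70 to autophagy, had 109, 95.1, and 113 CPM against 73.1, 63.2, and 59.4 CPM. Both groups of libraries were apart, with LFCs of 0.68 (adjusted p = 0.000538 from edgeR) for DNAJB1 and 0.69 (adjusted p = 0.00192) for BAG3. Non-treated DNAJB1 averaged 150 CPM at 3 h, 158 CPM at 1.5 h, and 222 CPM at 6 h. Its LFC ranged from 0.47 to 0.71 over the alternative fits. FKBP4, an HSP90 partner, had an LFC of 0.65 (adjusted p = 0.022), which became 0.47 (adjusted p = 0.0656) with the spread score in the model. Apart from FKBP4, DNAJB1, and BAG3, the called heat-shock genes passed the test without cadmium replicates 1 and 2 as well. DNAJB1 then had an LFC of 0.58 (adjusted p = 0.501), BAG3 of 0.79 (adjusted p = 0.0693), and FKBP4 of 0.39 (adjusted p = 1).

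HMOX1, on chromosome 22, had 150, 141, and 130 CPM with cadmium and 16.6, 21.6, and 28.1 CPM without. Its LFC of 2.66 ± 0.17 (standard error, adjusted p = 2.86e-20 by edgeR) did not depend on the libraries that stood apart, with 2.55 (adjusted p = 2.34e-14) without replicates 1 and 2. HMOX1 was the only one of 35 tested NRF2 target genes that was called, against 0.203% of all genes, and the median LFC of the list was 0.085. The ferritin chains FTL and FTH1, which store iron, had LFCs of 0.25 (adjusted p = 0.293) and 0.22 (adjusted p = 0.312). SLC7A11, the cystine importer for glutathione synthesis, was at 109.9 ± 7.19 CPM (SD, n = 3) with cadmium and 97.3 ± 7.72 CPM (SD, n = 3) without, an LFC of 0.17 (standard error 0.12, adjusted p = 0.761).

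Of 35 tested genes of ATF4 and the integrated stress response, DDIT4 and PPP1R15A were called, against 0.203% of all genes, and the median LFC was 0.090. DDIT4, an inhibitor of the growth kinase mTOR, had 32.5, 37.6, and 18.0 CPM with cadmium against 11.8, 8.68, and 7.39 CPM without, an LFC of 1.66 ± 0.23 (standard error) and an adjusted p of 9.55e-07 by edgeR. PPP1R15A, which brings a phosphatase to the translation factor eIF2α, had 66.7, 59.9, and 43.7 CPM against 32.3, 23.4, and 20.7 CPM, an LFC of 1.16 (standard error 0.17, adjusted p = 3.91e-06). In both, cadmium replicate 3 was the lowest of the treated libraries. Without replicates 1 and 2, DDIT4 had an LFC of 0.95 (adjusted p = 0.887) and PPP1R15A of 0.78 (adjusted p = 0.64). Among amino acid carriers, the LFC was 0.15 for SLC3A2, 0.28 for SLC7A5, 0.30 for SLC6A9, and 0.23 for SLC1A4, with adjusted p between 0.695 and 0.841.

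Among 28 tested immediate-early genes, JUN and MCL1 were called, against 0.203% of all genes, and the median LFC was 0.31. JUN, a subunit of the AP-1 transcription factor, had 399, 356, and 321 CPM with cadmium and 271, 276, and 262 CPM without, an LFC of 0.41 ± 0.08 (standard error) and an adjusted p of 0.00291 by edgeR. MCL1, which opposes apoptosis, had 411, 408, and 304 CPM and 269, 246, and 254 CPM, an LFC of 0.54 (adjusted p = 0.000688). GADD45B, a stress sensor counted among p53 targets, had an LFC of 0.69 (adjusted p = 4.16e-05) and was the only gene called of 20 in that list, whose median LFC was -0.069. All 3 lost their call without cadmium replicates 1 and 2, when JUN had an LFC of 0.25 and MCL1 of 0.24 (both adjusted p = 1), and GADD45B had 0.66 (adjusted p = 0.0655).

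The remaining genes called were EDN1, ANKRD1, TRIB1, RND3, SERTAD4, GPANK1, UBL5, and ZNF316. EDN1, a precursor of the vasoconstrictor peptide endothelin, had 148, 140, and 163 CPM with cadmium against 81.3 to 95.5 CPM in the non-treated libraries, an LFC of 0.76 ± 0.12 (standard error) and an adjusted p of 7.17e-05 by edgeR. ANKRD1, a known target of the YAP pathway, had 68.4, 66.8, and 76.6 CPM against 42.9, 43.4, and 45.8 CPM, an LFC of 0.68 (adjusted p = 0.000703). Both passed without cadmium replicates 1 and 2, with LFCs of 0.86 and 0.79. SERTAD4, which was named after its values were seen, had an LFC of 0.53 (adjusted p = 0.00711), and GPANK1 had 0.61 (adjusted p = 0.00819). RND3 had an LFC of 0.59 and UBL5 of 0.83 (both adjusted p = 0.0223), the zinc finger gene ZNF316 had 0.63 (adjusted p = 0.0245), and TRIB1, a pseudokinase, had 0.79 (adjusted p = 0.0373). Without replicates 1 and 2, none of these 6 passed the test of edgeR. SERTAD4 then had an LFC of 0.64 (adjusted p = 0.0761) and RND3 of 0.67 (adjusted p = 0.451), and GPANK1 had 0.39, ZNF316 0.37, and TRIB1 0.65 (all with an adjusted p of 1). For UBL5, the LFC fell to 0.11 without these libraries and to 0.50 (adjusted p = 0.071 from edgeR) with the spread score in the model. In non-treated cells, RND3 averaged 75.3 CPM at 1.5 h and 48.3 CPM at 3 h, and TRIB1 33.0 and 18.5 CPM. With cadmium, RND3 averaged 70.9 and 72.7 CPM at these times, and TRIB1 34.7 and 31.8 CPM. RND3 and TRIB1 lost their call with non-treated cells of 1.5, 3, and 6 h as control.

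In all 25 genes, the 3 cadmium libraries lay above the 3 non-treated libraries, which was also true of 963 of the 12341 genes tested, or 7.80%. Without cadmium replicates 1 and 2, 11 of the 25 genes passed the test: MT1E, MT1X, MT2A, ENSG00000289942, SLC30A1, HMOX1, HSPA1A, HSPA1B, HSPA6, EDN1, and ANKRD1. In that fit the single cadmium library was assumed to vary like the other groups. With the spread score as a covariate, 21 of the 25 passed, all but FKBP4, TRIB1, UBL5, and ZNF316, and 34 genes were higher and 1 lower in all. Without cadmium replicate 3, 85 genes were higher and 25 lower, and 24 of the 25 genes were among them.

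Several pathways had no gene called in either direction by edgeR. Over all genes tested, 4.99% were higher and 3.19% lower at an unadjusted p under 0.05, and the counts below are to be read beside these shares. Of 24 tested endoplasmic reticulum stress genes, 1 was higher at an unadjusted p under 0.05, and the median LFC was 0.0058. HSPA5, the chaperone that marks this response, had 1132 ± 62.6 CPM (SD, n = 3) with cadmium and 1133 ± 67.1 CPM (SD, n = 3) without. Of 15 NF-kB feedback and cytokine genes, 0 had an unadjusted p under 0.05, with a median LFC of -0.12. The 29 proteasome genes also had 0, with a median of 0.040. The 15 ubiquitin and autophagy genes had 5 higher and 2 lower at an unadjusted p under 0.05, above these shares. Their LFCs ranged from -0.57 to 2.05, with a median of 0.062. The 13 DUSP and Sprouty genes, which shut down kinase signalling, had 3 higher, with a median LFC of 0.19. The 19 cholesterol synthesis genes had 3 higher, with a median LFC of 0.12.

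Growth-related lists were close to the median of all genes. The 20 DNA replication genes had 1 member higher and 2 lower at an unadjusted p under 0.05 (4.99% and 3.19% over all genes), with a median LFC of -0.051, and the 19 genes of G2 and mitosis had 2 higher, with a median of -0.0043. TOP2A, which untangles chromosomes in dividing cells, was at 1908 ± 55.3 CPM (SD, n = 3) with cadmium and 1906 ± 43.6 CPM (SD, n = 3) without. The 13 protein genes of the mitochondrial genome had 0 at an unadjusted p under 0.05 and a median LFC of 0.067. The 10 genes tested from a list on the transport of divalent metals, which included entry routes such as SLC11A2 and TRPM7, the exporters ABCC1 and ATP7A, and the receptor TFRC, had 0 as well, with a median of -0.036. Of 8 genes of the MTF1 literature, SLC30A1 was called, against 0.203% of all genes, and the median LFC was 0.19. It is the same gene that was called among the SLC30 exporters.

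At 1.5 h, none of the 25 genes was called by edgeR, and neither was any other gene (0% of those tested, 991 at an unadjusted p under 0.05), whereas at 6, 12, and 24 h most of the 25 were higher. These later comparisons use libraries other than those at 3 h. At 6 h of cadmium, 22 of the 25 genes were called higher, against 1.60% of all genes tested (2.05% in either direction). At 12 h, 20 were called higher, against 5.19% (8.18% in either direction), and 1 lower. At 24 h, 18 were higher, against 1.56% (2.19% in either direction). The median LFC of the 25 genes, 0.79 at 3 h, had been 0.16 at 1.5 h. It reached 1.47 by 6 h and 1.58 by 12 h, and 1.11 remained by 24 h. FKBP4, UBL5, and ZNF316 were not called at 6 h, and UBL5 was the gene lower at 12 h, with an LFC of -0.62 (adjusted p = 0.0252), where non-treated replicates 1 and 2 had 1027 and 905 CPM and replicate 3 had 573 CPM.

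**Figure D4:**
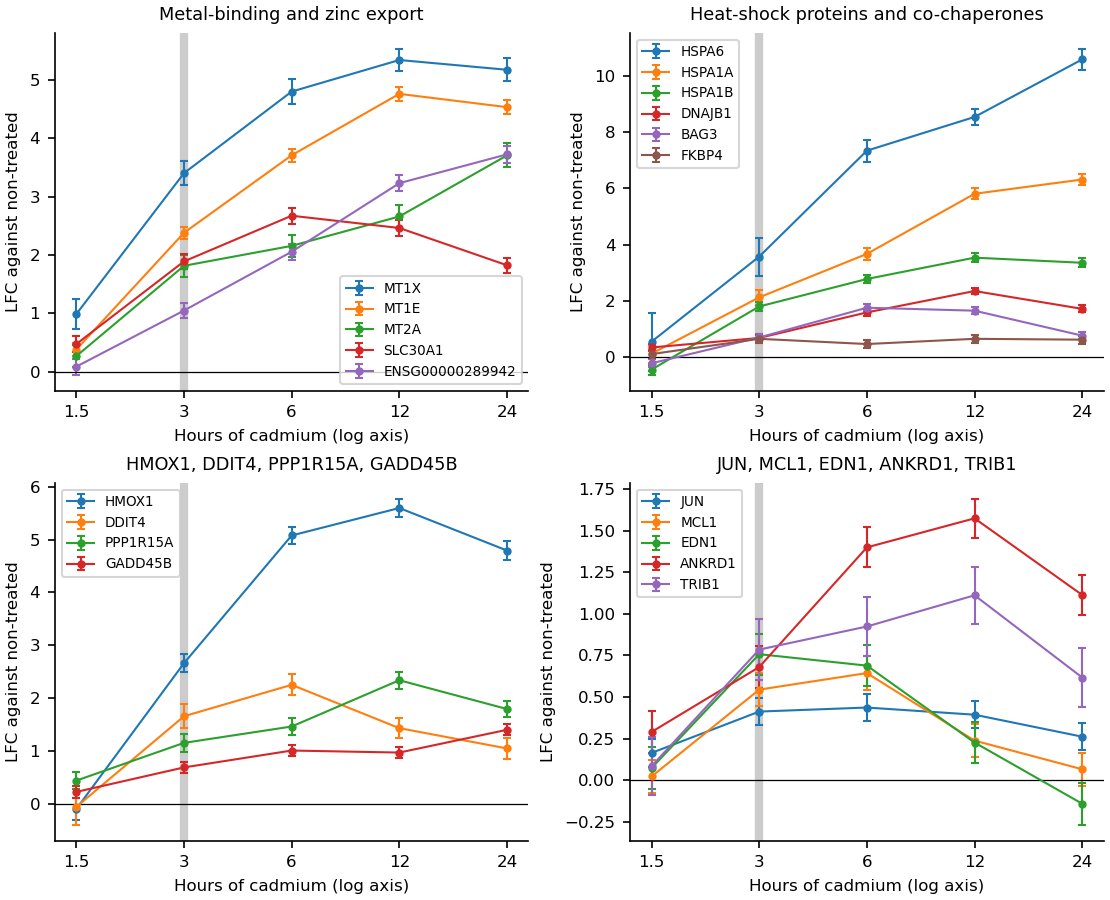
LFC of cadmium against non-treated cells harvested alongside, with standard errors as bars, over hours of treatment on a log axis, with the 3 h comparison marked by a grey band. MT1X, MT1E, and HMOX1 climb until 12 h, HSPA1A and HSPA6 until 24 h, and EDN1 and MCL1 return towards 0 after 6 h. The level of HSPA1A itself was 655 CPM at 12 h and 631 CPM at 24 h of cadmium, against 11.6 and 7.78 CPM without. Fitted LFCs of HSPA6 rest on non-treated groups with at most 1.31 CPM in a library and depend on the prior count.

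MT1E rose from 291.2 ± 4.24 CPM (SD, n = 3) at 1.5 h to 1309 at 3 h, 3243 ± 179 at 6 h, and 6997 ± 1017 at 12 h of cadmium, and was at 3797 ± 135 at 24 h. MT2A was at 11553 ± 241 CPM at 6 h and 23990 ± 1175 at 12 h (SD, n = 3). HMOX1 had 19.5 ± 3.52 CPM at 1.5 h, 140.3 ± 9.67 at 3 h, and 957.6 ± 133 at 6 h (SD, n = 3). HSPA6 went from 3.95 ± 0.84 CPM at 3 h to 65.1 ± 10.1 at 6 h, 294.5 ± 8.51 at 12 h, and 204.0 ± 11.7 at 24 h (SD, n = 3). In contrast, EDN1 had an LFC of 0.76 at 3 h, 0.69 at 6 h (adjusted p = 9.12e-05), 0.23 at 12 h (adjusted p = 0.30), and -0.14 at 24 h (adjusted p = 0.712 from edgeR).

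The change from 1.5 to 3 h was tested as the difference between the cadmium effects of the 2 time points. This difference was called for 9 genes, all higher at 3 h, or 0.0729% of the genes tested. All 9 are among the 25: MT1E, MT1X, MT2A, ENSG00000289942, SLC30A1, HMOX1, HSPA1A, HSPA1B, and BAG3. Of these, 6 stayed called in all alternative fits, whereas HSPA1A, BAG3, and ENSG00000289942 lost the call when single libraries were left out. From 3 to 6 h, the effect rose for 34 genes and fell for 9, or 0.348% in all, and 11 of the 25 were among the 34, against 0.276% of all genes. HMOX1, MT1E, BAG3, DNAJB1, and ENSG00000289942 stayed called in all alternative fits, and the other 6 did not. Both differences include the 3 h libraries through which the 25 genes were chosen, so they are given as a description of these genes. The difference from 3 to 6 h was 2.41 for HMOX1 (standard error 0.24, adjusted p = 1.44e-10 from edgeR), 1.33 for MT1E (adjusted p = 2.70e-09), and 1.06 for BAG3 (adjusted p = 0.000816). For MT2A it was 0.34 (standard error 0.26, adjusted p = 0.671 from edgeR), but the cadmium 3 h libraries were uneven. Replicates 1 and 2 had 10458 and 11402 CPM and replicate 3 had 5543 CPM, against 11285 to 11751 CPM at 6 h of cadmium.

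Cadmium and arsenic were compared directly at 3 h, at 2.3 µM and 2.55 µM of their salts. The doses differ in amount and are described by the paper as equitoxic, so the values are those of the treatments as applied. Of the genes tested, 15 were higher with cadmium and 2 with arsenic, or 0.138% in all. The comparison reuses the cadmium 3 h libraries through which the 25 genes were chosen, so their counts are given as a description. Of the 25 genes, 7 were higher with cadmium, against 0.122% of all genes, namely MT1E, MT1X, MT2A, ENSG00000289942, SLC30A1, MCL1, and SERTAD4. MCL1 lost this call without cadmium replicate 1, cadmium replicate 2, or arsenic replicate 1. MT1X differed by 2.16 (standard error 0.19, adjusted p = 1.43e-13 from edgeR), MT1E by 1.94 (adjusted p = 3.31e-23), and SLC30A1 by 1.03 (adjusted p = 2.03e-08). HMOX1 was lower with cadmium than with arsenic, by -1.59 (standard error 0.14, adjusted p = 1.02e-13). The heat-shock genes HSPA1A, HSPA1B, DNAJB1, and BAG3 differed by -0.33, -0.51, -0.48, and -0.068, with adjusted p from 0.0822 to 0.97.

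Against 20 µM mercury at 3 h, 61 genes were higher with cadmium and 159 lower, or 1.78% of the genes tested. Here too the cadmium 3 h libraries are those through which the 25 genes were chosen, so their counts are a description. Of the 25, 5 were higher with cadmium, against 0.494% of all genes, and 9 were lower, against 1.29%. Those higher were MT1E, MT1X, MT2A, SERTAD4, and UBL5, and those lower were HMOX1, DDIT4, PPP1R15A, RND3, and the heat-shock genes HSPA1A, HSPA1B, HSPA6, DNAJB1, and BAG3. UBL5 lost this call with the spread score in the model and without cadmium replicate 1, cadmium replicate 2, or mercury replicate 2, and SERTAD4 lost it without mercury replicate 1. MT1X differed by 1.88 (standard error 0.18, adjusted p = 2.10e-12 from edgeR) and HMOX1 by -2.03 (standard error 0.14, adjusted p = 2.08e-18). SLC30A1 was 0.30 higher with cadmium (standard error 0.12, adjusted p = 0.232). Without 1 of the libraries, the number higher ranged from 18 to 102 and the number lower from 84 to 181.

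**Figure D5:**
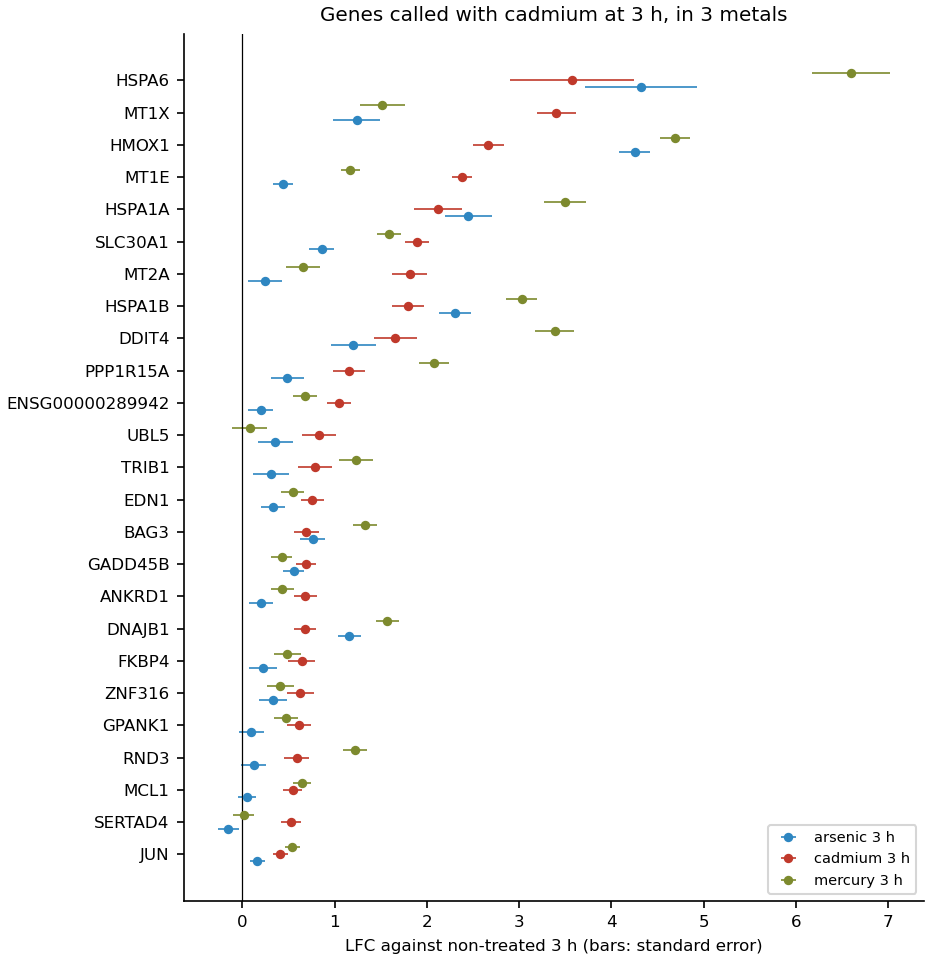
LFC against the same 3 non-treated 3 h libraries, with standard errors as bars, for arsenic (blue), cadmium (red), and mercury (green) in the 25 genes called with cadmium. The cadmium points lie to the right of the others for MT1X, MT1E, and MT2A and to the left for HMOX1, HSPA1A, and HSPA1B. The 3 sets share their controls.

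Relative to the same non-treated libraries, MT2A had an LFC of 1.81 with cadmium, 0.65 with mercury (adjusted p = 0.053), and 0.24 with arsenic (adjusted p = 0.838 from edgeR). HMOX1 had 2.66 with cadmium, 4.69 with mercury, and 4.25 with arsenic. SERTAD4 had 0.53 with cadmium, 0.013 with mercury (adjusted p = 0.994), and -0.15 with arsenic (adjusted p = 0.836).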

How the data were processed

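Total RNA of 1321N1 cells was made into 3′ libraries (QuantSeq FWD) and sequenced as single-end reads of 100 bases. Alignment by the authors used STAR 2.7.9a and the GRCh38 build, and reads were counted strand-specifically on exons of the basic GENCODE annotation, in a mode that leaves out reads overlapping more than 1 gene. The deposited values are raw counts without normalization for 62703 genes, and the 92 spike-in rows held 0 counts and were left out.

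A single edgeR 4.0.16 model (R 4.3.3) took in all 60 libraries, with TMM factors and a coefficient for each of 20 groups. The study itself used DESeq2 for the treated against non-treated comparison of each time point. It shrank LFCs with ashr and adjusted p-values by independent hypothesis weighting, which was not done here. Genes were kept by filterByExpr (minimum count 10, minimum total 15). Quasi-likelihood p-values were adjusted by Benjamini-Hochberg over all 12341 genes of a comparison. Standard errors are the LFC divided by the root of the test's F. Genes were called at an adjusted p under 0.05. CPM are relative to TMM-normalized library sizes, with a common biological coefficient of variation of 0.12. At this depth, 3 counts are about 1 CPM, and low genes carry large counting error.

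Named are all genes called with an LFC above 1, the 12 next highest called with a mean of at least 10 CPM, called members of 19 gene lists (or the 2 most abundant members where at most 1 was called), and the transporters and metallothioneins of the study. The lists, the genes, and the tests were chosen with earlier results of these data known. The spread score and the fits without 2 libraries were added after the values were seen. Replicates were compared for copies, with a chi-square per degree of freedom from 2.11 to 5.51 within the 6 libraries. Between the cadmium and non-treated 3 h libraries, the same replicate number did not pair the groups, and other groups were not checked for this. The alternatives were DESeq2 1.42.0, RLE size factors, other filters, a replicate block, only the 6 libraries compared, non-treated cells of 1.5, 3, and 6 h as the control, glmTreat, and leaving out libraries. The fit was also run on simulated counts. These were drawn independently for each gene and library, so they cannot show how the shared spread of replicates affects the calls. Promoters are from RefSeq, and transcripts from GENCODE.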

Additional observations from a re-analysis of the deposited data

Results flagged for a closer look

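For each gene below, the cadmium effect at 3 h differed, by the test of the difference itself in edgeR, from that at another time point or from that of another metal. All include the cadmium 3 h libraries through which the genes were chosen.

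Between 1.5 and 3 h of cadmium, the LFC rose by 2.76 for HMOX1, 2.41 for MT1X, 2.25 for HSPA1B, 2.00 for MT1E, 2.00 for HSPA1A, 1.55 for MT2A, 1.42 for SLC30A1, 0.96 for ENSG00000289942, and 0.92 for BAG3. The adjusted p ranged from 3.22e-16 for MT1E to 0.0217 for HSPA1A. For HSPA1B, the LFC at 1.5 h was -0.45. Its mean went from 44.6 to 124.8 CPM with cadmium and from 60.7 to 35.9 CPM in non-treated cells. HSPA1A lost the call in 7 of 16 alternative fits, BAG3 in 8, and ENSG00000289942 in 2, all of them fits without 1 library.

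Between 3 and 6 h, it rose further by 2.41 for HMOX1, 1.55 for HSPA1A, 1.40 for MT1X, 1.33 for MT1E, 1.06 for BAG3, 1.01 for ENSG00000289942, 0.98 for HSPA1B, 0.91 for DNAJB1, 0.78 for SLC30A1, 0.72 for ANKRD1, and 0.63 for SERTAD4. The adjusted p ranged from 1.44e-10 for HMOX1 to 0.0442 for SERTAD4. Of these 11 genes, 5 stayed called in all 16 alternative fits. HSPA1B, SLC30A1, and SERTAD4 lost the call with the spread score in the model and in several fits without 1 library, and HSPA1A, MT1X, and ANKRD1 in 6 to 9 fits without 1 library.

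Compared with arsenic at 3 h, cadmium was higher by 2.16 for MT1X, 1.94 for MT1E, 1.57 for MT2A, 1.03 for SLC30A1, 0.85 for ENSG00000289942, 0.68 for SERTAD4, and 0.49 for MCL1, and HMOX1 differed by -1.59. The highest of these adjusted p values was 0.0051, for MCL1, which lost the call in 3 of 10 alternative fits.

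Compared with mercury at 3 h, cadmium was higher by 1.88 for MT1X, 1.21 for MT1E, 1.16 for MT2A, 0.75 for UBL5, and 0.51 for SERTAD4. The differences were -3.03 for HSPA6, -2.03 for HMOX1, -1.72 for DDIT4, -1.38 for HSPA1A, -1.23 for HSPA1B, -0.92 for PPP1R15A, -0.90 for DNAJB1, -0.63 for BAG3, and -0.63 for RND3. The highest of these adjusted p values was 0.0172, for UBL5, whose level was set by the 2 cadmium libraries that stood apart and which lost the call in 4 of 10 alternative fits. SERTAD4 lost it in 1. The doses of the metals differed in amount, and their part in these differences was not tested.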

How the results depend on the processing

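Of the 25 genes, 10 stayed called under all 15 alternatives, and HSPA6 in the 14 in which it was tested, since it did not pass the filter with only the 6 libraries compared (glmTreat, which tests for an LFC beyond 1, kept 7 genes against 11 with an LFC above 1). The other genes lost their call mostly when 1 or 2 libraries were left out. TRIB1, named among these, lost it under 9 of 15 alternatives, and RND3, FKBP4, ZNF316, and UBL5 under 7.

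The number of genes higher, 25 at first, was 45 with DESeq2, 81 without a filter on low counts, 45 with only the 6 libraries compared, 66 with the non-treated cells of 1.5, 3, and 6 h as control, and 11 without cadmium replicates 1 and 2. The number lower, 0 at first, was 5, 11, 2, and 3 under the first 4 of these and 1 with the spread score as covariate. Without the filter, 3 genes were lower with an LFC below -1. The number higher ranged from 17 to 85 and the number lower from 0 to 25 when 1 library was left out, and the highest of each came without cadmium replicate 3, when 17 genes were higher with an LFC above 1 (lowest 10) and 5 lower with an LFC below -1 (lowest 0).

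Against arsenic, DESeq2 gave 27 genes higher and 4 lower, and the spread score 24 and 4. Leaving out 1 library gave 12 to 19 higher and 2 to 3 lower. Against mercury, DESeq2 gave 96 higher, and leaving out 1 library 18 to 102 higher and 84 to 181 lower. For the change from 1.5 to 3 h, DESeq2 gave 2 genes lower and the spread score 1, with 7 to 10 higher and 0 to 3 lower without 1 library. For the change from 3 to 6 h, DESeq2 gave 65 higher and 24 lower and the spread score 26 and 3, with 24 of the 43 calls shared, and there were 15 to 64 higher and 3 to 42 lower without 1 library. The cause was not tested.

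SLC39A10, whose LFC ranged from -0.40 to 0.097 when 1 library was left out, turned from -0.099 to 0.097 without cadmium replicate 1 and to 0.040 without non-treated replicate 2, and SLC3A2 from 0.15 to -0.091 without cadmium replicates 1 and 2, none of them called.

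With a replicate block, 31 genes were called in all, the 25 among them. The deviations of cadmium and non-treated libraries with the same number correlated at 0.044, -0.021, and 0.033, and not every library correlated best with its own number.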

Other observations

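Further stress genes were higher in all 3 cadmium libraries without passing the adjusted test of edgeR. They were picked after their values were seen, and 7.80% of all genes tested were higher in all 3 cadmium libraries than in any non-treated library. The kinase phosphatases DUSP1, DUSP5, and DUSP6, which limit MAP kinase signalling, had LFCs of 1.16 (adjusted p = 0.114), 0.77 (adjusted p = 0.194), and 0.67 (adjusted p = 0.283). Other members of that list had LFCs below 0, such as -0.29 for DUSP7, -0.56 for SPRY4, and -0.51 for DUSP8. The growth factor HBEGF had 0.51 and the matrix protein CCN1 0.52 (both adjusted p = 0.173), and KLF6, a transcription factor, had 0.35 (adjusted p = 0.068). Among chaperones, HSPH1, the exchange factor of HSP70, had 0.32 (adjusted p = 0.0674) and the constitutive HSPA8 had 0.34 (adjusted p = 0.205). MAFG, a small partner of NRF2, had 0.50 (adjusted p = 0.109). The LFC was above 0 for 25 of 32 heat-shock, 24 of 28 immediate-early, and 25 of 35 NRF2 target genes tested. Members below 0 included HSF2 (-0.25), HSPA4 (-0.095), BTG2 (-1.23), and NFE2L2 (-0.17).

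The median LFC of genes grouped by transcript length was 0.069 for those of up to 800 bases and -0.041 for those over 6000 bases. GON4L, the lower gene with the lowest adjusted p, had 48.3, 42.0, and 50.9 CPM with cadmium and 73.4, 63.8, and 72.4 CPM without.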
